A study of Homo sapiens with 36 samples.

Results

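The genes described here are 53 genes of mitosis and the G2/M transition, a list of names set for this work and looked up by gene symbol in the table of read counts. All 53 were found among the 57820 genes of the table, SGO1 and SGO2 under identifiers that once bore the names SGOL1 and SGOL2, and all 53 passed the filter on low counts in every comparison. They cover cyclins and CDK1, mitotic kinases, the spindle checkpoint, anaphase onset, the kinetochore, kinesins, spindle assembly, cytokinesis, chromosome structure and 2 transcription factors. The RNA came from A2780, a human ovarian cancer cell line, and was sequenced in 36 libraries that form 12 conditions of 3 libraries. The lines were the parental cells (wt), their cisplatin-resistant analogue made by chronic exposure to cisplatin (cis), and a line raised from cis cells by culture without serine and glycine (cis SSP). Each line was grown in complete medium or in medium lacking serine and glycine (-SG), untreated or with carboplatin (carbo). The dose is labelled 6 M. The study used 6 µM carboplatin in other assays of wt and cis cells. Its sequencing methods state no dose, so the unit for these libraries was not settled here. The labels describe cis SSP as cis cells whose serine synthesis pathway is active again. The study reports that these cells partly regained sensitivity to platinum. Both cis and cis SSP cells derive from the same parental line, so a difference between lines is a difference between these cell populations. The figure legends of the study describe the libraries of a condition as technical replicates, so SDs, standard errors and p-values given here do not cover independent cultures.

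Entry into mitosis is driven by CDK1 bound to cyclin A or cyclin B, and the Polo and Aurora kinases then act on centrosomes, kinetochores and the central spindle. Anaphase follows once the spindle checkpoint releases CDC20, the activator of the anaphase-promoting complex, which marks cyclin B and securin for destruction. The mRNAs of most of these proteins accumulate late in the cell cycle under FOXM1, B-MYB and the MuvB complex, and the DREAM complex represses the same genes in arrested cells, so their summed level is commonly read as a measure of how many cells are dividing.

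Many promoters of this class carry a cell cycle genes homology region (CHR), the letters TTTGAA, downstream of CCAAT boxes bound by NF-Y. Promoter windows of 300 bases, from 250 bases before to 50 bases after the annotated start, were taken from RefSeq (GRCh38.p14) and were found for 46 of the 53 genes (not for AURKA, BIRC5, BUB3, FOXM1, TPX2, TTK and UBE2C). TTTGAA occurred on either strand in 31 of the 46 windows (67.4%), against 15.4% of 27305 promoters of the same length. CCAAT occurred in 34 (73.9%, against 35.7%), and both in 24 (52.2%, against 6.08%), while the E2F letters TTTCCCGC or TTTGGCGC occurred in 2 (4.35%, against 2.31%). The search took no account of the order of the motifs or the distance between them. These counts therefore do not measure the arrangement described above. The 80 bases before the start held TTTGAA in 18 of the 46 genes (39.1%, against 3.63% of all promoters). Below are those 80 bases for the 6 genes among the anchors of the results that hold TTTGAA there, written 5′ to 3′ along the gene with TTTGAA and CCAAT, or their reverse complements TTCAAA and ATTGG, in capitals. They lie at chr1:43358901-43358980 (CDC20), chr16:23678809-23678888 (PLK1), chr15:40160989-40161068 (BUB1B), chr10:92593050-92593129 (KIF11) and chr7:36389782-36389861 (ANLN) on the plus strand and at chr10:128126424-128126503 (MKI67) on the minus strand of GRCh38.p14.
CDC20: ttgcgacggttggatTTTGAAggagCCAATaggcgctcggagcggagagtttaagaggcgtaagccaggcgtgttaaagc
PLK1: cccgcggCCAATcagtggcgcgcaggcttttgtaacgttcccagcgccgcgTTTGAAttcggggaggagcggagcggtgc
BUB1B: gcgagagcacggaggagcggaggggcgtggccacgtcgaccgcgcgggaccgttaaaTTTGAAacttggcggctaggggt
KIF11: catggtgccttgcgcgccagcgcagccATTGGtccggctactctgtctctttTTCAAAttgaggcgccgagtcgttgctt
ANLN: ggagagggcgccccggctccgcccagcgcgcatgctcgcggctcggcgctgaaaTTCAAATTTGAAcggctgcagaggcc
MKI67: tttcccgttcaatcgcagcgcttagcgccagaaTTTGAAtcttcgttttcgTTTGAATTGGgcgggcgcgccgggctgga

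In PLK1, BUB1B and KIF11 the CHR letters began 29, 23 and 28 bases before the start. ANLN held them on both strands side by side, and in MKI67 the second CHR shared its last letter with a reversed CCAAT. The letters alone do not show that a protein was bound. The median log2 fold change with carboplatin in wt cells was -1.95 for the 31 genes with TTTGAA and -2.01 for the 15 without it, and in cis cells deprived of serine and glycine it was -1.25 and -1.40. Between cis and wt cells it was 0.20 and -0.06 in complete medium and -0.76 and -1.14 in -SG medium. These medians were not tested against each other.

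Depth ranged over 13074937 to 20441582 counts on genes in a library. Libraries 25 (cis SSP, first of 3) and 32 (cis SSP -SG, second of 3) stood apart from the others of their conditions along transcript length. Each library was set against the mean of the other libraries of its condition. Expression then changed by -0.37 and -0.38 (log2) for each doubling of exon length in these 2 libraries and by -0.14 in library 11 (wt -SG carbo). It changed by 0.17 to 0.20 in the other libraries of cis SSP and cis SSP -SG, whose reference held library 25 or 32. In the comparisons of conditions and of responses, counts of called genes in cis SSP cells are therefore given with and without library 25 or 32. Each stands there beside the share of all genes called in the same fit. The markers of the labelled ovarian origin were low. Over 7 ovarian and epithelial genes the sum was 1.78 to 48.4 CPM in a library, since PAX8, MUC16 and CDH1 had condition means of at most 0.561, 0.113 and 0.208 CPM and KRT18 reached 43.1 CPM. The 4 leukocyte markers summed to at most 0.604 CPM and the 2 endothelial ones to at most 0.411 CPM in any library, with CD3E at 0 in all. The 4 fibroblast markers (COL1A1, COL1A2, DCN and PDGFRB) summed to 532 to 563 CPM in wt and 1608 to 1638 CPM in wt carbo libraries. Their sum was 533 to 549 CPM in wt -SG and 1486 to 1761 CPM in wt -SG carbo. Over all conditions of a line it was 2.47 to 5.57 CPM in cis and 32.9 to 47.1 CPM in cis SSP libraries, without overlap. Whether these markers have a part in the results below was not tested. With the length trend removed, the number of the 53 genes called moved by over 1.5 times in 3 comparisons, all of cis SSP cells.

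Levels are CPM (read counts brought to a common library size with TMM over the 36 libraries) as mean ± SD with n = 3, and fold changes come from edgeR fits on the libraries of the conditions compared, in which a gene was called at a Benjamini-Hochberg adjusted p-value under 0.05. Scaling over 36 or over 6 libraries shifted a log2 difference by at most 0.05, apart from carboplatin in cis -SG, where it shifted by 0.09. Together the 53 genes made up 7617 ± 107 CPM in wt cells. Divided by the summed length of their annotated exons, CCNB1 (cyclin B1, the partner of CDK1 at mitotic entry) had the highest level in wt, 105.5 CPM per kb, followed by CDC20 (83.1), TOP2A (83.0, topoisomerase IIα) and TPX2 (75.3, which activates AURKA on spindle microtubules). GAS2L3 (3.54, a microtubule and actin linker of the midbody), SPC25 (4.07, a subunit of the NDC80 complex) and SGO1 (6.30, the protector of centromeric cohesion) were lowest.

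The summed level was highest in cis, at 8839 ± 86.1 CPM, and the 3 cis libraries (8775 to 8937) lay above all others. Then came cis SSP -SG (7859 ± 964), cis carbo (7738 ± 62.8), cis SSP (7693 ± 899), wt (7617 ± 107), cis SSP carbo (7522 ± 54.7) and cis SSP -SG carbo (7306 ± 182). Each of these 6 overlapped its neighbours in the order, the libraries of cis SSP spanning 6659 to 8281 and those of cis SSP -SG 6751 to 8512 CPM. The last 5 conditions overlapped neither each other nor those above, with wt -SG at 6265 ± 132, cis -SG at 3785 ± 47.0, cis -SG carbo at 2843 ± 146, wt carbo at 2157 ± 9.22 and wt -SG carbo at 1882 ± 137 CPM. In RNA from a bulk culture, fewer cells in G2 and mitosis and less of each mRNA per cell cannot be told apart.

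**Figure D1:**
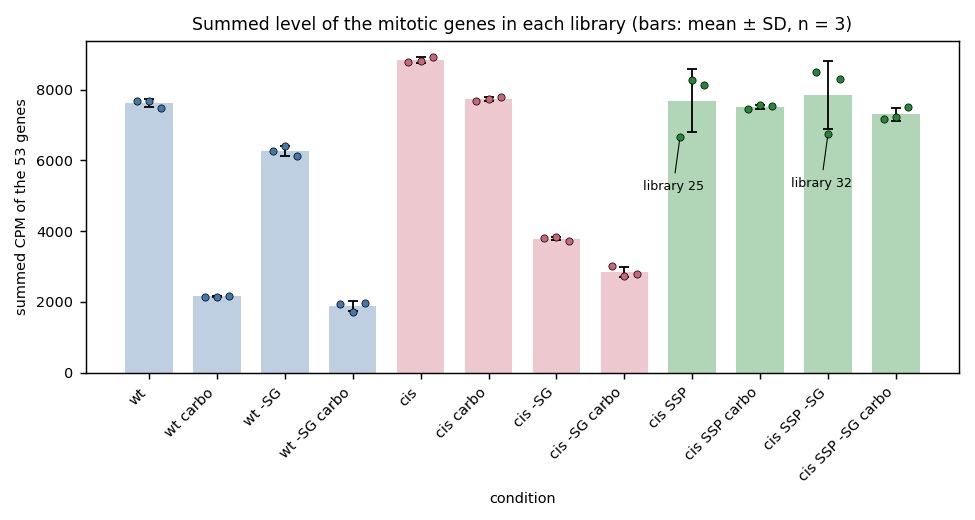
Summed CPM of the 53 mitotic genes (vertical axis) in the 12 conditions (horizontal axis), with 1 point per library and bars for the mean ± SD of 3 libraries. The low conditions are wt carbo and wt -SG carbo, at 2157 and 1882 CPM on average, and cis -SG and cis -SG carbo, while the 4 cis SSP conditions stay between 7306 and 7859 CPM on average, with libraries 25 and 32 below the others of their condition.

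The sum rested in part on the 4 genes with the longest exons, MKI67, CENPF, ASPM and CENPE, which held 15.7% to 22.5% of it in every library apart from libraries 25 (9.69%), 32 (9.37%) and 11 (10.3%). Without these 4 genes the sum in cis SSP was 6014 to 6453 CPM and in cis SSP -SG 6119 to 6599 CPM. By single genes, the highest mean was in cis for 25 of the 53, in wt for 12, in cis SSP -SG for 10, in cis SSP for 5 and in cis SSP -SG carbo for 1. The lowest mean was in wt -SG carbo for 42, in cis -SG carbo for 9 and in wt carbo for 2. The span between the highest and lowest condition mean was 2.02-fold in BUB3, the smallest, and 18.8-fold in ASPM, the largest, with 16.01-fold in KIF20A and 12.02-fold in CENPA.

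**Figure D2:**
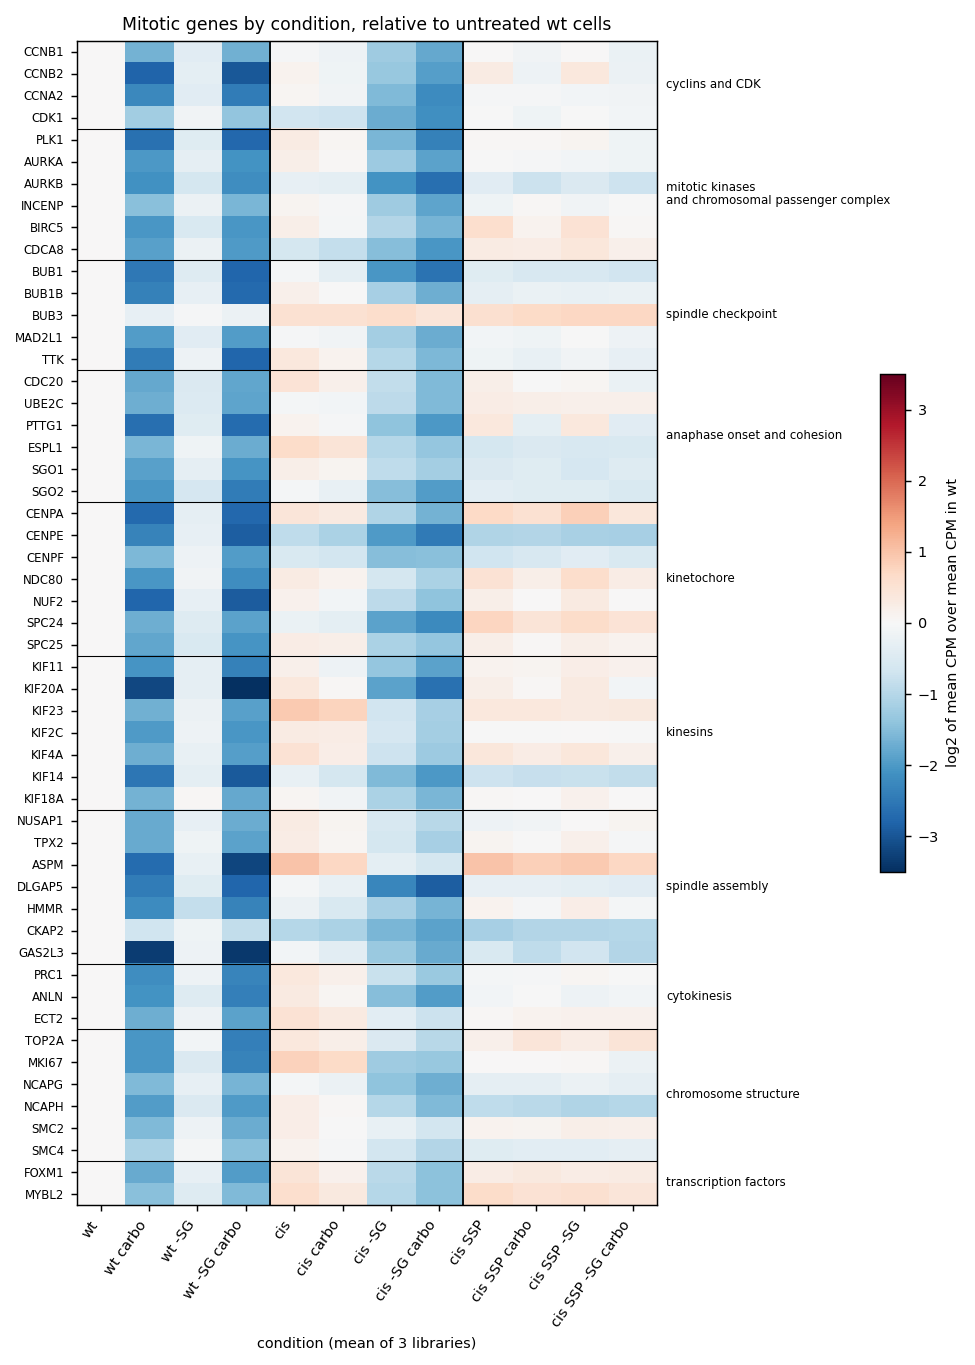
Each row is 1 of the 53 genes, grouped by role, and each column a condition. Colour is the log2 ratio of the mean CPM (n = 3) to the mean in wt cells, blue for lower and red for higher. The columns wt carbo, wt -SG carbo, cis -SG and cis -SG carbo are blue in nearly every row, apart from BUB3, and no such column appears among the 4 of cis SSP.

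The comparison of wt cells with and without carboplatin asks how the sensitive parental cells respond to the drug. Every one of the 53 genes was called lower. Over all 14639 genes tested, 39.0% were called lower and 38.9% higher. The median of the 53 log2 fold changes was -1.96, from -3.30 in GAS2L3 to -0.26 in BUB3, against 0.00 over all genes. The summed level with carboplatin was 28.3% of that without it.

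PLK1, the kinase that drives centrosome maturation and mitotic entry, stood at 173, 177 and 176 CPM in the wt libraries and at 28.5, 28.5 and 28.2 CPM with carboplatin. It was 6.09-fold lower (log2 fold change -2.61, SE 0.0361). The drop of CCNB1 was smaller, from 257, 264 and 248 to 83.2, 79.97 and 79.5 CPM, 3.13-fold. CDK1 itself fell by 1.20 and CCNB2 (cyclin B2) by 2.79 on the log2 scale, so that the range within the 4 cyclin and CDK genes was wide. AURKB, the enzymatic subunit of the chromosomal passenger complex, was 4.30-fold lower.

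The largest falls were those of GAS2L3, at 25.9, 27.5 and 25.5 and then 2.49, 3.02 and 2.39 CPM, of KIF20A, a kinesin of the central spindle, at 113, 115 and 111 and then 13.1, 12.5 and 11.4 CPM, and of CCNB2. KIF20A was 9.03-fold and GAS2L3 9.88-fold lower. In all 3 the treated libraries lay together far under the untreated ones. CENPA, the centromeric histone H3 variant, was 6.48-fold lower, and PTTG1, which encodes securin, fell by 2.62 on the log2 scale. TOP2A and MKI67, the usual marker of proliferation, were both lower by close amounts, with log2 fold changes of -2.02 (SE 0.0222) and -2.01 (SE 0.0239). By role, the medians ran from -1.60 for the transcription factors FOXM1 and MYBL2 to -2.35 for the spindle checkpoint genes.

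The smallest changes belonged to BUB3, which fell from 148, 153 and 145 to 123, 124 and 119.6 CPM (log2 fold change -0.26, SE 0.0275, adjusted p = 6.93e-20), and to CKAP2, a microtubule-associated protein, with -0.68. BUB3 is a spindle checkpoint subunit that also takes part in other protein complexes outside mitosis. Its partners in the checkpoint, BUB1, BUB1B and the kinase TTK, fell by 2.49, 2.35 and 2.44.

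In -SG medium carboplatin lowered all 53 genes of wt cells again, against 34.6% lower and 34.3% higher of 14467 genes. The median log2 fold change was -1.74 (all genes, -0.01), and the largest fall was that of KIF20A, from 91.6, 89.6 and 89.5 to 8.84, 8.14 and 10.3 CPM (log2 fold change -3.28, SE 0.0825, adjusted p = 3.01e-09). MKI67 was at 284, 345 and 268 CPM without and 101, 53.5 and 98.1 CPM with the drug. Library 11, the second of the treated group, was the lowest of the 3 for MKI67, and the trend over length given above has the same sign. BUB3 changed least, by -0.15 (adjusted p = 0.0403), and its call was kept in 1 of 6 fits with single libraries removed.

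**Figure D3:**
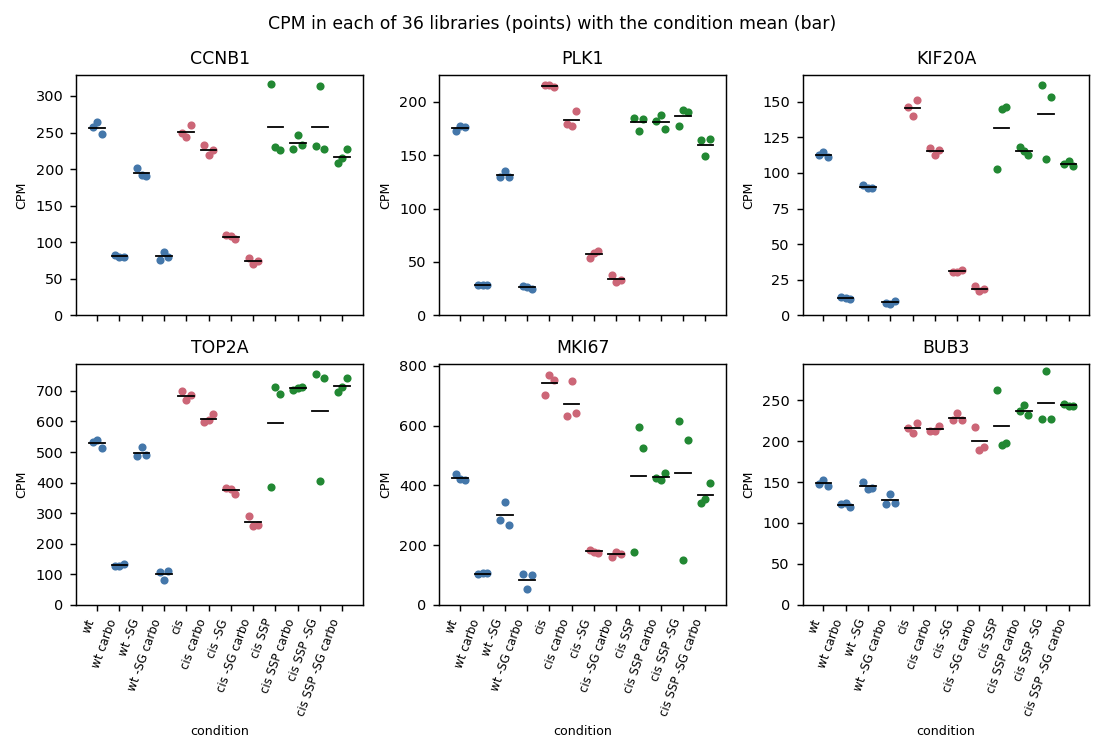
CPM (vertical axes, from 0) of CCNB1, PLK1, KIF20A, TOP2A, MKI67 and BUB3 in the 36 libraries, with 1 point per library and a bar for the mean of each condition. Blue is wt, red cis and green cis SSP. PLK1 and KIF20A drop in wt carbo, wt -SG carbo, cis -SG and cis -SG carbo, BUB3 differs mostly between the lines, and single low points of TOP2A and MKI67 in cis SSP and cis SSP -SG are libraries 25 and 32.

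In cis cells in complete medium, the response of the resistant line to the same drug was small. Of the 53 genes, 38 fell, none rose and 15 were not called, where 10.8% of 13458 genes were called lower and 9.27% higher. The median log2 fold change was -0.16 (all genes, 0.00), and the largest falls were those of KIF14 (-0.32), KIF11 (-0.32, SE 0.03) and HMMR (-0.31). KIF11, the kinesin that separates spindle poles, stood at 193, 194 and 202 CPM without and 153, 152 and 157 CPM with carboplatin. PLK1 went from 216, 216 and 214 to 179, 177 and 192 CPM, a 1.15-fold difference. All treated libraries lay under all untreated ones for both genes.

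The 15 genes not called included CDK1 (-0.02), AURKB (-0.03), UBE2C (0.01, the E2 enzyme of the anaphase-promoting complex) and KIF2C (0.00, a microtubule depolymerase of the centromere). MKI67 varied between libraries, at 702, 771 and 753 and then 630.5, 748 and 642 CPM, and its groups overlapped. CDC20 was among those that fell, by 0.27.

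In -SG medium carboplatin lowered 49 of the 53 genes in cis cells, with none higher and 4 not called (CENPF, MKI67, SGO1 and SPC25), against 11.4% lower and 10.9% higher of 14476 genes. The median was -0.43 (all genes, 0.00). PLK1 was lowered from 54.2, 58.1 and 60.1 to 37.7, 31.7 and 32.8 CPM (log2 fold change -0.67, SE 0.054, adjusted p = 4.44e-06), which was the largest fall, followed by KIF20A (-0.65) and CDC20 (-0.59). The 2 groups did not overlap for these. Libraries 23 and 24 of the treated group had 17.9% and 14.9% of their reads on no annotated feature, against at most 9.31% in the others, and the number of genes called was 44 to 50 when single libraries were left out.

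In cis SSP cells none of the 53 genes was called with carboplatin in complete medium, where 0.749% of 13885 genes were called lower and 1.97% higher. Of the 53, 1 had an unadjusted p under 0.05 by edgeR, and DESeq2 called 0. The median log2 fold change was -0.04 (all genes, -0.02). The spread was wide, with a common dispersion of 0.0328 to 0.0682 in the pairwise fits that hold cis SSP cells against 0.000421 to 0.00597 in the others. PLK1, whose value in library 25 was close to the others, was at 185, 173 and 184 CPM without and 182, 188 and 175 CPM with the drug (log2 fold change 0.00, SE 0.0902). MKI67 was at 176, 595 and 524 CPM, the first being library 25, and then at 425, 417 and 442 CPM.

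Without library 25, 29 genes were called, 24 lower and 5 higher, with a median of -0.10 (all genes, 19.2% lower and 21.9% higher of 14170). The largest of these were GAS2L3 (-0.58), ASPM (-0.53, a spindle pole protein), MKI67 (-0.39) and, upwards, UBE2C (0.28) and BUB3 (0.27). These fits treat the spread of 2 untreated libraries as that of the condition.

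Carboplatin in cis SSP cells in -SG medium gave 0 calls among the 53 genes (0.295% of 13541 genes lower, 1.17% higher), with 9 at an unadjusted p under 0.05 by edgeR and 1 called by DESeq2. The median was -0.11 (all genes, -0.02). Leaving out library 32 gave 36 calls, 32 lower and 4 higher (19.9% lower and 21.1% higher of 13833 genes), among them MKI67 (-0.65), GAS2L3 (-0.55) and KIF20A (-0.54), and the median was then -0.14. KIF20A stood at 161, 109.6 and 154 CPM without and 106, 109 and 105 CPM with carboplatin, library 32 being the second of the untreated values.

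**Figure D4:**
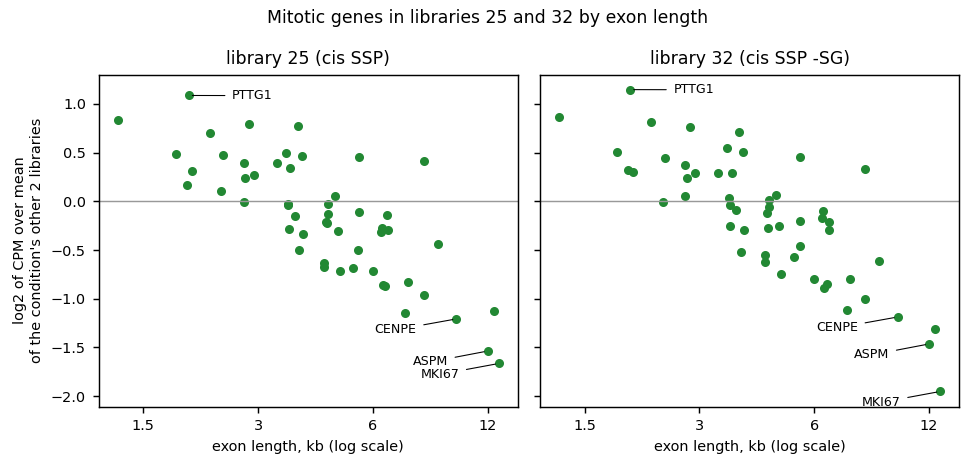
Each point is 1 of the 53 genes, by exon length (horizontal axis, kb, log scale) and by the log2 ratio of its CPM in library 25 (left) or 32 (right) to the mean of the other 2 libraries of that condition. Long genes mostly lie low, with MKI67 at -1.67 and -1.95, and short ones mostly high, with PTTG1 at 1.09 and 1.15. BUB3, with 8.175 kb of exons, is an exception at 0.41 and 0.33.

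Deprivation of serine and glycine was compared within each line, which addresses how far the lines depend on both amino acids in the medium. In wt cells 49 of the 53 genes fell, none rose, and BUB3, CENPF, KIF18A and SMC4 were not called, where 25.1% of 14284 genes were lower and 24% higher. The median log2 fold change was -0.28 (all genes, 0.01). HMMR, a spindle assembly factor and hyaluronan receptor, changed most. It stood at 72.8, 69.4 and 67.5 CPM in complete medium and 40.9, 38.6 and 37.9 CPM without serine and glycine (1.77-fold lower, log2 fold change -0.82, SE 0.0453, adjusted p = 9.39e-12). AURKB (-0.61) and SGO2 (-0.58) came next. PLK1 was lowered from 175 ± 2.42 to 132 ± 3.18 CPM, a 1.32-fold difference, while TOP2A changed by -0.07 and MKI67 by -0.49, whose calls were kept in 2 and 1 of 6 fits with single libraries removed.

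In cis cells deprivation lowered 52 of the 53 genes and raised BUB3, against 37.4% lower and 37.6% higher of 14122 genes. The median was -1.25 (all genes, 0.01) and the summed level was 42.8% of that in complete medium, where wt cells kept 82.3%. KIF20A fell from 146, 139.8 and 151 to 30.7, 30.7 and 31.8 CPM (4.60-fold, log2 fold change -2.20, SE 0.0426). DLGAP5, a microtubule protein that stabilizes kinetochore fibres, fell from 137, 134 and 138 to 29.7, 28.8 and 29.4 CPM. MKI67 was 4.09-fold and PLK1 3.68-fold lower. In each of these 4 every deprived library lay under every other.

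Genes of the same complexes differed in the size of this fall. Within the condensin genes, NCAPG and NCAPH fell by 1.32 and 1.22, and the ATPase subunits SMC2 and SMC4 by 0.46 and 0.75. The role medians ran from -0.94 for spindle assembly to -1.46 for FOXM1 and MYBL2. BUB3 was at 216, 209 and 222 CPM in complete and 226, 234 and 226 CPM in -SG medium, a rise of 0.11 (SE 0.0299, adjusted p = 0.00102).

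In cis SSP cells none of the 53 genes was called on deprivation, by edgeR or by DESeq2, and none had an unadjusted p under 0.05 by edgeR (0.0218% of 13736 genes higher, 0% lower). The median was 0.01 (all genes, 0.00). Both libraries that stood apart enter this comparison, 1 on each side. PLK1 was at 185, 173 and 184 CPM in complete and 177, 192 and 191 CPM in -SG medium. KIF20A, at 103, 145 and 146 and 161, 109.6 and 154 CPM, had its lowest value in libraries 25 and 32. With both left out, 16 genes were called, 11 higher and 5 lower, where 18.9% of 13925 genes were higher and 17% lower. Their changes ran from -0.19 in BUB1 to 0.34 in CENPF, a kinetochore-binding protein.

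**Figure D5:**
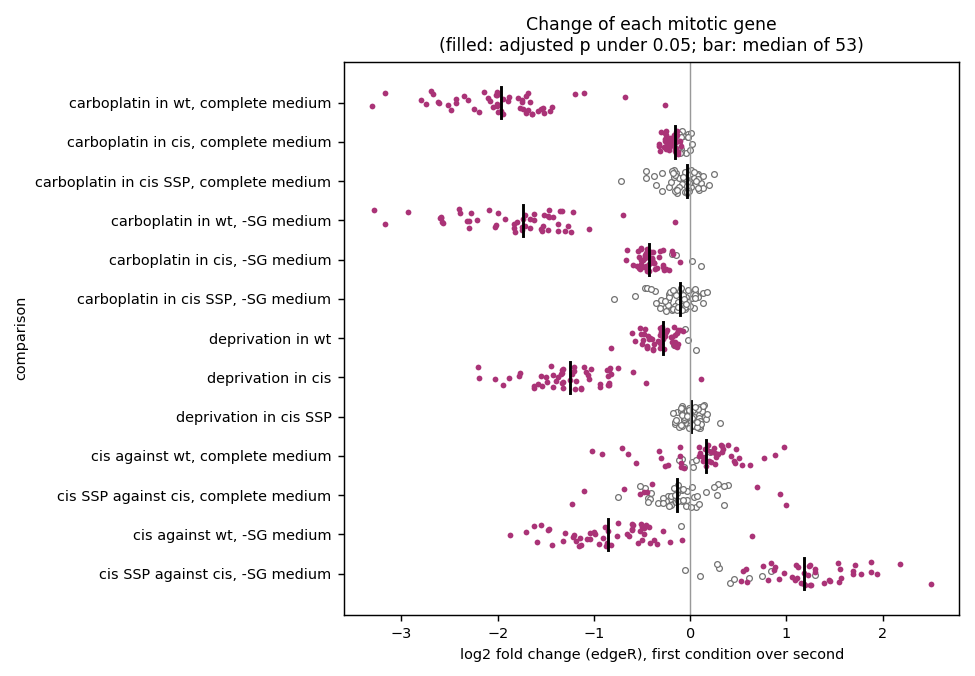
Log2 fold change by edgeR (horizontal axis) of each of the 53 genes in the 13 comparisons of 2 conditions (vertical axis), filled where the adjusted p was under 0.05, with a bar at the median. The medians lie at -1.96 and -1.74 with carboplatin in wt cells in complete and -SG medium, at -1.25 on deprivation in cis cells, and between -0.11 and 0.01 in the 3 comparisons within cis SSP cells.

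Between the untreated lines in complete medium, cis cells had 32 of the 53 genes higher than wt cells, 14 lower and 7 not called, where 39.4% of 14431 genes were higher and 39.1% lower, so that either share alone was common among all genes. The median was 0.16 (all genes, 0.00). ASPM stood at 289.8, 293 and 283 CPM in wt and 577, 595 and 574 CPM in cis (log2 fold change 0.98, SE 0.0241). KIF23, a central spindle kinesin needed for cytokinesis, was higher by 0.88 and MKI67 by 0.77. BUB3 was also higher (0.51).

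The genes lower in cis included CKAP2 (-1.02), CENPE (-0.92, a kinetochore motor that aligns chromosomes), CDK1 (-0.71) and CDCA8 (-0.65, a passenger complex subunit). CENPE was at 183, 173 and 169.6 CPM in wt and 93.2, 96.7 and 94.6 CPM in cis. CDK1 was at 265, 264 and 251 and 166, 158 and 164 CPM, while its partner CCNB1, at 257 ± 7.93 and 251 ± 8.86 CPM, differed by -0.06 and was called in 3 of 6 fits with single libraries removed. The lines thus did not differ in the same direction across these genes.

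Deprived of serine and glycine, cis cells had 51 of the 53 genes lower than wt cells, 1 higher (BUB3, 0.64) and 1 not called (ASPM, -0.10), against 40.3% lower and 40.8% higher of 14939 genes. The median was -0.86 (all genes, 0.00). DLGAP5, at 106, 107 and 105 CPM in wt -SG and 29.7, 28.8 and 29.4 CPM in cis -SG, had the largest difference (-1.87, SE 0.0414), followed by CENPE (-1.70) and CDK1 (-1.62).

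In complete medium, cis SSP cells differed from cis cells in 10 of the 53 genes, 3 higher and 7 lower, where 15.8% of 13714 genes were higher and 13.3% lower. In this fit neither share was higher among the 53 than among all genes. The median was -0.14 (all genes, 0.01). CDCA8 was at 46.5, 45.2 and 45.8 CPM in cis and 90.5, 83.2 and 84.9 CPM in cis SSP, 1.91-fold higher (SE of the log2 fold change 0.0876, adjusted p = 0.000739). SPC24, a subunit of the NDC80 complex, was also higher, at 41.6, 43.3 and 42.2 and 117, 64.9 and 69.5 CPM, the largest value being library 25. ESPL1, which encodes separase, was at 159, 168 and 169 and 55.9, 77.4 and 74.6 CPM (-1.23, SE 0.152), and NCAPH differed by -1.10. Without library 25 the number was 38, 11 higher and 27 lower, with all 10 among them (32.9% higher and 32.5% lower of 14154 genes). Without any 1 cis library (7.77% to 8.06% higher, 6.52% to 6.58% lower) it was 4, CDCA8, ESPL1, NCAPH and SGO1.

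In -SG medium 43 of the 53 genes were higher in cis SSP than in cis cells, none was lower and 10 were not called, against 21.6% higher and 23.2% lower of 14342 genes. The median was 1.18 (all genes, -0.01), and the summed level in cis SSP -SG was 208% of that in cis -SG. SPC24 stood at 14.2, 13.1 and 13.2 CPM in cis -SG and 62.1, 107 and 63.7 CPM in cis SSP -SG, the second of the latter being library 32 (5.69-fold, log2 fold change 2.51, SE 0.239, adjusted p = 0.000577). KIF20A was 4.53-fold, DLGAP5 3.83-fold and PLK1 3.23-fold higher, with no overlap between the groups. MKI67, at 183, 178 and 175 and 616, 151 and 553 CPM, was not called (1.30, SE 0.488), and without library 32 its difference was 1.71. Without that library 51 genes were called, all higher, and BUB3 and NCAPH were not (37% higher and 38.5% lower of 14732 genes).

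The differences between these responses were tested by interaction terms in fits of 4 conditions. They share libraries with each other and with the comparisons above, so they are not independent of them. With carboplatin in complete medium, all 53 genes differed between cis and wt cells, each with the more negative change in wt (30.3% of 15300 genes positive, 27.2% negative), with a median difference of 1.81 on the log2 scale against 0.02 over all genes. Between cis SSP and cis cells the response to carboplatin differed in 0 of the 53 (0.423% positive and 0.0832% negative of 14428 genes), with 2 at an unadjusted p under 0.05 by edgeR and 0 called by DESeq2, and in 14 without library 25, 12 positive and 2 negative (9.40% and 4.89% of 14716 genes). On deprivation, 51 genes had the more negative change in cis cells, BUB3 differed in the other direction and HMMR was not called (26.9% negative and 27.1% positive of 15418 genes), with a median of -0.92 against 0.02.

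Between cis SSP and cis cells the response to deprivation differed in 41 genes, all positive (6.86% positive and 10.3% negative of 14806), with a median of 1.24 against 0.00, and in 52, all positive, without libraries 25 and 32 (28.8% positive and 26.6% negative of 15057 genes). The effect of medium on the response to carboplatin was smaller. In wt cells 16 genes fell less in -SG than in complete medium (14.6% positive and 13.1% negative of 15247), in cis cells 29 had the more negative change in -SG medium (6.17% negative and 5.91% positive of 14797), and in cis SSP cells 0 differed (0.0281% negative and 0% positive of 14231), with 0 at an unadjusted p under 0.05 by edgeR and 0 called by DESeq2. The medians were 0.12, -0.24 and -0.05. A smaller fall in wt cells does not mean a higher level with the drug. Untreated wt cells had a mean summed level over the whole set of 6265 CPM in -SG and 7617 CPM in complete medium. With carboplatin these levels were 1882 and 2157 CPM. Whether the lower level before the drug has a part in the smaller falls was not tested. Without libraries 25 and 32, 6 genes differed in cis SSP cells, 1 positive and 5 negative (5.72% and 9.29% of 14442 genes).

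CDKN1A encodes the CDK inhibitor p21, a target of p53 that acts upstream of the DREAM complex. It stood at 140.2, 144 and 138 CPM in wt and 1775, 1781 and 1754 CPM in wt carbo libraries, a rise of 3.67 (SE 0.021). In cis cells it rose from 91.3, 92.9 and 92.8 to 319.7, 323 and 323 CPM (1.83, SE 0.0297), and in cis SSP from 64.9, 56.6 and 54.6 to 385, 389 and 371 CPM (2.70, SE 0.112, adjusted p = 0.00107). The treated libraries lay above the untreated ones in every line, also in -SG medium (3.77, 1.07 and 2.87 in wt, cis and cis SSP). Without library 25 or 32 the rise in cis SSP was 2.78 in complete and 3.02 in -SG medium. On deprivation it rose in cis cells by 0.77 and fell in wt cells by 0.09, which DESeq2 did not call. In cis SSP cells it differed by -0.30 and was not called, and without libraries 25 and 32 it fell by 0.34 (SE 0.0545, adjusted p = 1.54e-05).

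Of 89 further genes in 5 lists of the same machinery, 76 fell and 6 rose with carboplatin in wt cells (median -1.11), where 39.0% of all genes fell and 38.9% rose. In cis cells 35 fell and 0 rose (median -0.10), against 10.8% and 9.27% of all genes, and DESeq2 called 19. In cis SSP cells 0 were called, with 7 at an unadjusted p under 0.05 and 1 called by DESeq2, and without library 25 there were 35 lower and 9 higher (all genes, 19.2% and 21.9%). The lists are set against the same shares of all genes. In wt carbo all 23 other spindle and cytokinesis genes fell, led by DEPDC1 (-2.77), the kinase NEK2 (-2.65) and KIF15 (-2.64), with a median of -1.81. Of 25 inner and outer kinetochore genes 23 fell and 1 rose, with a median of -1.14 and CENPI, CENPH and KNL1 in front (-1.99, -1.92 and -1.91). Of 13 cohesin and condensin genes 11 fell and 2 rose (median -0.81), and of 17 genes of the anaphase-promoting complex and its regulators 10 fell and 2 rose (median -0.31), among them UBE2S (-1.20) and the inhibitor FBXO5 (-1.20). The 11 MuvB and DREAM subunits, 9 lower and 1 higher, had a median of -0.38, with LIN52 (-1.75) and RBL1 (-1.30, the pocket protein p107) changing most.

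On deprivation 71 of the 89 genes fell and 8 rose in cis cells (median -0.61), where 37.4% of all genes fell and 37.6% rose. In wt cells 49 fell and 12 rose (median -0.16), against 25.1% and 24%. The spindle and cytokinesis list fell whole in cis cells (23 of 23, median -1.19, with SPAG5 at -1.62 and KIF20B at -1.60), 24 of 25 kinetochore genes fell (median -0.76), and of the MuvB and DREAM subunits 4 fell and 3 rose (median -0.02). In cis SSP cells 0 of the 89 were called, with 1 at an unadjusted p under 0.05 and 0 called by DESeq2, and without libraries 25 and 32 there were 17 higher and 16 lower (all genes, 18.9% and 17%). Between cis SSP and cis cells in -SG medium, 43 of the 89 were higher and 3 lower (median 0.57), against 21.6% and 23.2% of all genes. Without library 32 there were 64 higher and 15 lower (all genes, 37% and 38.5%). PSRC1, a spindle protein, had the largest difference (2.05). It was also called higher in cis SSP than in cis cells in complete medium (0.91).

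The identifiers and positions of the genes named most often, in GRCh37 as annotated by GENCODE, are CCNB1 (ENSG00000134057, chr5:68462962-68474072, plus strand), PLK1 (ENSG00000166851, chr16:23688977-23701688, plus strand), KIF20A (ENSG00000112984, chr5:137514408-137523412, plus strand), DLGAP5 (ENSG00000126787, chr14:55614830-55658326, minus strand), MKI67 (ENSG00000148773, chr10:129894923-129924687, minus strand) and BUB3 (ENSG00000154473, chr10:124913918-124929983, plus strand). All are protein-coding, and reads were counted over their exons, UTRs included. Exons of KIF20A overlap those of BRD8 and CDC23, and those of CENPA overlap SLC35F6. Since the strand setting of the counting is not given in the sources used here, reads in the shared stretches may be assigned to either gene or to neither.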

How the data were processed

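Per the labels and the methods of the study, mRNA purified from total RNA of A2780 cells was sequenced in 36 libraries as single reads, and the authors deposited raw counts per gene, made with STAR (GRCh37.p13) and with HTSeq on exons. The strand setting of the counting is not given in the sources used here. A row of reads on no feature (4.21% to 17.9% of a library) and 2 others that name no gene and hold 0 throughout stayed out of library sizes and tests. Symbols, positions and exon lengths came from GENCODE mapped to GRCh37, which named 55538 of 57820 genes. Replicate libraries were compared pair by pair (mean chi-square over genes 1.20 to 123 in 36 pairs), and none was counted as a duplicate.

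Fits were made in R 4.3.3 with edgeR 4.0.16 on the libraries of each comparison (6, or 12 for an interaction), with TMM, filterByExpr, estimateDisp, robust glmQLFit and glmQLFTest. P-values of all genes tested were adjusted by Benjamini-Hochberg, and genes under 0.05 were called. The SE is the absolute log2 fold change divided by the square root of F. DESeq2 1.42.0 (Wald test) and the other alternatives are described in the closing section. The 53 genes, the lists and the tests were chosen with earlier results of these data known. In each comparison 12 anchor genes, up to 3 largest rises and falls among the genes called and genes moving against the majority were considered for naming, with at most 3 called genes per further list. CDKN1A and the markers were the others named. Tables and plots were made with Python 3.11.15, pandas 2.3.3 and matplotlib 3.10.9.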

Additional observations from a re-analysis of the deposited data

Results flagged for a closer look

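Differences between responses in 2 lines or 2 media, each tested by an interaction term with edgeR's quasi-likelihood test over all genes, drew attention among these genes. Between cis and wt cells the response to carboplatin in complete medium differed in 53 of 53 genes, and in 57.6% of all genes in either direction. It differed most in GAS2L3 (3.06 on the log2 scale), KIF20A (2.87) and CENPA (2.61), and for CDKN1A the difference was -1.83.

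The response to deprivation differed between cis and wt cells in 52 of the 53 genes (54.0% of all genes), most in KIF20A (-1.87), DLGAP5 (-1.75) and MKI67 (-1.52), and in the other direction in BUB3 (0.15). CDKN1A differed by 0.87. Between cis SSP and cis cells the same response differed in 41 (17.1%), most in KIF20A (2.31), DLGAP5 (2.14) and PLK1 (1.93), and CDKN1A by -1.05 (-1.11 without libraries 25 and 32). The comparisons of cis with wt and of cis SSP with cis share the cis libraries.

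The response to carboplatin differed between -SG and complete medium in 16 of the 53 genes in wt cells. In either direction 27.7% of all genes were called, so this count lay near the background share. All 16 differences were positive, where 14.6% of all genes were positive, and HMMR (0.71), AURKB (0.58) and BIRC5 (0.53) differed most. A positive difference here is a smaller fall in -SG medium, not a higher level with the drug. The lowest condition mean was in wt -SG carbo for HMMR (13.8 CPM) and BIRC5 (10.4 CPM), and in cis -SG carbo for AURKB (14.6 CPM). Whether the level before carboplatin has a part in these differences was not tested. With the trend over length removed, CCNA2, AURKA, UBE2C and SPC24 lost their call in wt cells and BUB1 gained one. UBE2C, SPC24 and NCAPG were called in 7, 1 and 3 of 12 fits with single libraries removed, and the other genes called in all 12. In cis cells the response differed between the media in 29 of the 53 (12.1% of all genes). UBE2C (-0.54), KIF2C (-0.53) and PLK1 (-0.45) differed most there, and CDKN1A by -0.75. Between cis SSP and cis cells the response of CDKN1A to carboplatin differed by 0.87, and by 0.95 without library 25.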

How the results depend on the processing

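Each count of called genes was recomputed with DESeq2's size factors, total counts, no filter on low counts, DESeq2's Wald test, one fit over 36 libraries, the trend over transcript length removed, and each library left out in turn. No gene called in a comparison was called in the opposite direction under any of these.

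One fit over 36 libraries, whose spread takes in libraries 25 and 32, gave 7 genes for carboplatin in cis, 6 in cis SSP, 31 in cis -SG and 13 in cis SSP -SG, 26 for deprivation in wt and 1 in cis SSP, 27 for cis against wt and 25 for cis SSP against cis in complete medium, and 7 and 6 for the effect of medium on the response to carboplatin in wt and cis. Removing the trend over length gave 1 gene for carboplatin in cis SSP in either medium and 16 for cis SSP against cis in complete medium, and DESeq2 gave 1 for carboplatin in cis SSP -SG. Leaving out single libraries gave 0 to 29 genes for carboplatin in cis SSP, 0 to 36 in cis SSP -SG, 4 to 38 for cis SSP against cis in complete medium, and 0 to 14 for the difference between cis SSP and cis in the response to carboplatin. Without libraries 25 and 32, 16 genes were called for deprivation in cis SSP and 6 for the effect of medium on carboplatin there. Shares of all genes for the fits without library 25 or 32 stand with the comparisons above. The other counts in this paragraph have no such share beside them, so they show only how far a count moved between fits.

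Total counts in place of TMM moved the median of all genes by -0.11 in the difference between cis SSP and cis in the response to deprivation. They changed the share of higher among all genes called from 72.4% to 60.3% for carboplatin in cis SSP, from 48.9% to 60.7% in cis -SG, from 83.6% to 73.3% for the difference between cis SSP and cis in the response to carboplatin, from 40.1% to 28.7% for that in the response to deprivation, and from 48.9% to 62.0% for the effect of medium on carboplatin in cis. No paired analysis was possible because the labels give no replicate numbers within a condition.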

Other observations

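Genes of replication licensing and origin firing, which act before mitosis, moved in wt carbo libraries as well. Of 12 such genes 11 fell and 1 rose, with a median log2 fold change of -1.25 (all genes, 39.0% lower and 38.9% higher), led by MCM2 (-1.58), MCM3 (-1.52) and MCM6 (-1.51), 3 subunits of the replicative helicase. In cis cells 9 fell and 1 rose with carboplatin (median -0.17), where 10.8% of all genes fell and 9.27% rose. In cis SSP cells edgeR called 0, with 3 at an unadjusted p under 0.05 and 2 called by DESeq2, and without library 25 it called 5 lower and 1 higher (all genes, 19.2% and 21.9%). On deprivation 11 of the 12 fell in wt cells (median -0.39, all genes 25.1% lower). In cis cells 11 fell and 1 rose (median -0.43, all genes 37.4% lower and 37.6% higher), with ORC1, the largest subunit of the origin recognition complex, at -1.56 and GMNN (geminin) at -1.14 in cis. Between cis and wt cells the difference in response to deprivation was called in 9 of the 12, 2 positive and 7 negative (median -0.15), where 27.1% of all genes were positive and 26.9% negative.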
